A study of Mus musculus with 18 samples.

Results

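The SOCS (suppressor of cytokine signalling) family comprises the genes Socs1 to Socs7 and Cish. Its expression was followed in newly transcribed RNA of mouse fibroblasts treated with an interferon (IFN), with an inhibitor of translation, or with both. All array probe sets whose annotation names a member and no other gene were taken, which gave 24 of 45037 probe sets for 8 of 18194 genes. The rule uses gene names and no measured value, but the family was chosen with earlier results of these data known. After the filter on dim probe sets, 20 of the 24 were tested and each of the 8 genes kept at least 1.

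The NIH-3T3 line is an established line of mouse embryonic fibroblasts, and all groups were of this line. Cells were pretreated for 15 min with the solvent DMSO or with cycloheximide (CHX) at 50 µg/ml, which blocks translation, and then received mock, IFNα or IFNγ at 100 U/ml for 1 h. The 6 groups were mock, IFNα and IFNγ without CHX, and CHX, IFNα with CHX and IFNγ with CHX, with 3 biological replicates each. All groups, controls included, received 500 µM 4-thiouridine (4sU) from 30 to 60 min of treatment. RNA made in this window carries 4sU and was separated from older RNA, so the values follow recent transcription, together with any processing or decay within the window. With CHX present the cells could not make new protein, and the comparison asks which responses need none.

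SOCS proteins are feedback inhibitors of cytokine receptors. A receptor bound by its ligand activates JAK kinases, these phosphorylate STAT transcription factors, and STATs switch on genes that include SOCS genes. The SOCS protein then binds the receptor or the kinase through its SH2 domain, and its SOCS box recruits elongins B and C and cullin 5, a ubiquitin ligase that marks bound proteins for degradation. SOCS1 and SOCS3 can also block JAK activity directly, SOCS1 is the best known brake on IFNγ signalling, CIS (from Cish) and SOCS2 are best known from cytokines that use STAT5, and SOCS4 to SOCS7 are mainly described in growth factor and insulin signalling. Promoters of genes that answer to IFNα often hold the IFN-stimulated response element (ISRE), and those of genes that answer to IFNγ often hold the gamma-activated site (GAS).

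The promoter sequences of the responding genes are shown for the letters of these elements. RefSeq windows from 250 bases before to 50 bases after a transcription start (build GRCm38.p6) were at hand for Socs1, Socs3, Socs4 and Cish. Capitals mark matches to the core of a GAS, TTCNNNGAA, which reads the same on both strands, or to the core of an ISRE, GAAANNGAAA, searched on both strands. The Socs1 sequence lies on the minus strand at chr16:10785537-10785706, the Socs3 sequence on the minus strand at chr11:117969367-117969536, and both run from base -170 to base -1 before the start. The Cish sequence lies on the plus strand at chr9:107296649-107296678 and is cut to 30 bases around the start, from base -10 to base 20.
Socs1: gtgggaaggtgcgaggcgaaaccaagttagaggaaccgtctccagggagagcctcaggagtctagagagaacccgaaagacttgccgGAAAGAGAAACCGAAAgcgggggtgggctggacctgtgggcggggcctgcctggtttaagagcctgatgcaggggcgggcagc
Socs3: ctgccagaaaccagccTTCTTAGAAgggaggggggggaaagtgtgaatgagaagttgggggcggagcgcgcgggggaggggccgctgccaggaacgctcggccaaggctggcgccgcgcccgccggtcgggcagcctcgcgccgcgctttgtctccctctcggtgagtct
Cish: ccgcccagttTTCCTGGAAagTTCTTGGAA
Socs1 held 2 overlapping matches to the ISRE core, at bases -83 to -74 and -77 to -68, and none to the GAS core. Socs3 held 1 match to the GAS core at bases -154 to -146. Cish held 2, at bases 1 to 9 and 12 to 20, past the annotated start. Socs4 held no match to either core. Of all 32851 windows of 300 bases, 8.3% held the GAS core and 3.44% the ISRE core. The GAS core with a spacer of 2 bases was found in 8.52% of windows and with 4 bases in 6.95%, and in none of these 4 genes. A match is a string of letters and does not show that a factor was bound.

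The deposited values are intensities on a linear scale, scaled between arrays by the authors, with a median per array of 9.6 to 10.8. They show relative and not absolute amounts of newly transcribed RNA, so neither the number of cells nor the RNA per cell can be read from them. Levels of different genes were not compared with each other. The mean correlation of an array with the other 2 of its treatment was 0.968 to 0.993, and no array was left out. All 9 fibroblast markers measured had a median intensity of at least 1094, whereas 3 of 3 endothelial, 3 of 5 leukocyte and 1 of 4 epithelial markers stayed below the lowest value kept, 8.5, on every array. The leukocyte marker Cd68 was above it, at a median of 129 (53.5 to 284), and so was the epithelial marker Epcam, at 13.6. Lyz2, Cdh1 and Krt18 had medians below 8.5 but reached 10.1, 9.4 and 10.5 on their highest array. The part of other cell types in the results was not tested. Log2 changes were tested in a limma model of all 18 arrays. A probe set was called at a change of at least 2-fold and a Benjamini-Hochberg adjusted p under 0.01 over all 27773 probe sets tested. The IFNα and IFNγ comparisons share their control arrays and are not independent of each other.

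IFNγ raised Socs1, Socs3 and Cish, and the other 5 genes of the family had no called change with it. It raised 5 of the 20 probe sets, of which 3 measure Socs3, against 1.63% of all probe sets called in either direction. The median log2 change of the 20 was 0.36, with -0.000995 over all probe sets. With IFNα 0 of 20 were called by limma, beside 0.5% of all probe sets, and 3 had an unadjusted p under 0.05. With CHX present, IFNγ raised 6 probe sets of 4 genes (3.18% of all called) and IFNα raised 2 probe sets of 2 genes (0.893%). The fourth gene with IFNγ and CHX was Socs2.

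Socs1 encodes the JAK inhibitor that limits IFNγ signalling, and a single probe set measures it. Its intensity was 172, 117 and 127 in mock, 289, 292 and 192 with IFNα, and 2051, 768 and 1169 with IFNγ. With CHX it was 46.9, 66.9 and 34.6, with IFNα and CHX 214, 265 and 153, and with IFNγ and CHX 1269, 1244 and 690.0. The 6 arrays with IFNγ lay above the 12 others, and the 3 arrays with CHX alone lay below the 15 others. In order of mean log2 intensity the treatments were IFNγ (10.26 ± 0.71, SD, n = 3), IFNγ with CHX (10.01 ± 0.50), IFNα (7.98 ± 0.34), IFNα with CHX (7.68 ± 0.40), mock (7.10 ± 0.29) and CHX (5.58 ± 0.48). Neighbours in this order overlapped except IFNγ with CHX against IFNα, and mock against CHX.

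IFNγ raised Socs1 8.96-fold (log2 change 3.16, SE 0.36, limma adjusted p = 6.76e-05), and 21.6-fold in the presence of CHX (4.43, SE 0.36, adjusted p = 1.10e-06). IFNα gave a log2 change of 0.89 without CHX (95% confidence interval 0.11 to 1.67, adjusted p = 0.703) and raised Socs1 4.31-fold with it (2.11, adjusted p = 0.00491). The IFNα call with CHX was lost without replicate 1 or 3 of CHX or without replicate 1 or 2 of IFNα with CHX (adjusted p 0.0243 to 0.0370), with log2(value + 16) (0.0155) and without the filter (0.0131). The IFNγ level exceeded the IFNα level by 2.28 in log2 (adjusted p = 0.00160) and by 2.32 with CHX (adjusted p = 7.62e-04). The first of these calls was lost without replicate 3 of IFNα (adjusted p = 0.0123). With the arrays of each comparison fitted alone, 4 of these 5 calls were lost (adjusted p 0.0151 to 0.0899), and IFNγ with CHX against CHX was kept.

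The larger Socs1 responses under CHX went with a lower starting level. CHX alone lowered Socs1 2.87-fold (log2 change -1.52, SE 0.36, adjusted p = 0.00862). In cells with an IFN no difference between the levels with and without CHX was called: -0.30 for IFNα (95% confidence interval -1.08 to 0.48) and -0.25 for IFNγ (-1.03 to 0.52). Both intervals still include a 2-fold fall. The gains of the IFN responses under CHX, 1.22 (0.12 to 2.32) for IFNα and 1.27 (0.17 to 2.37) for IFNγ, did not pass the test (adjusted p = 1.00 and 0.535). The fall with CHX alone was called with a small margin. It was lost without any of the 3 mock arrays, without replicate 1 or 3 of CHX, 1 or 2 of IFNα, 3 of IFNγ, 1 or 2 of IFNα with CHX, or 1 or 2 of IFNγ with CHX. The adjusted p was then 0.0102 to 0.0426. It was lost as well after quantile normalization (adjusted p = 0.0178), without the filter (0.0181), with log2(value + 16) (0.0200) and when the 6 mock and CHX arrays were fitted alone (0.0220).

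**Figure D1:**
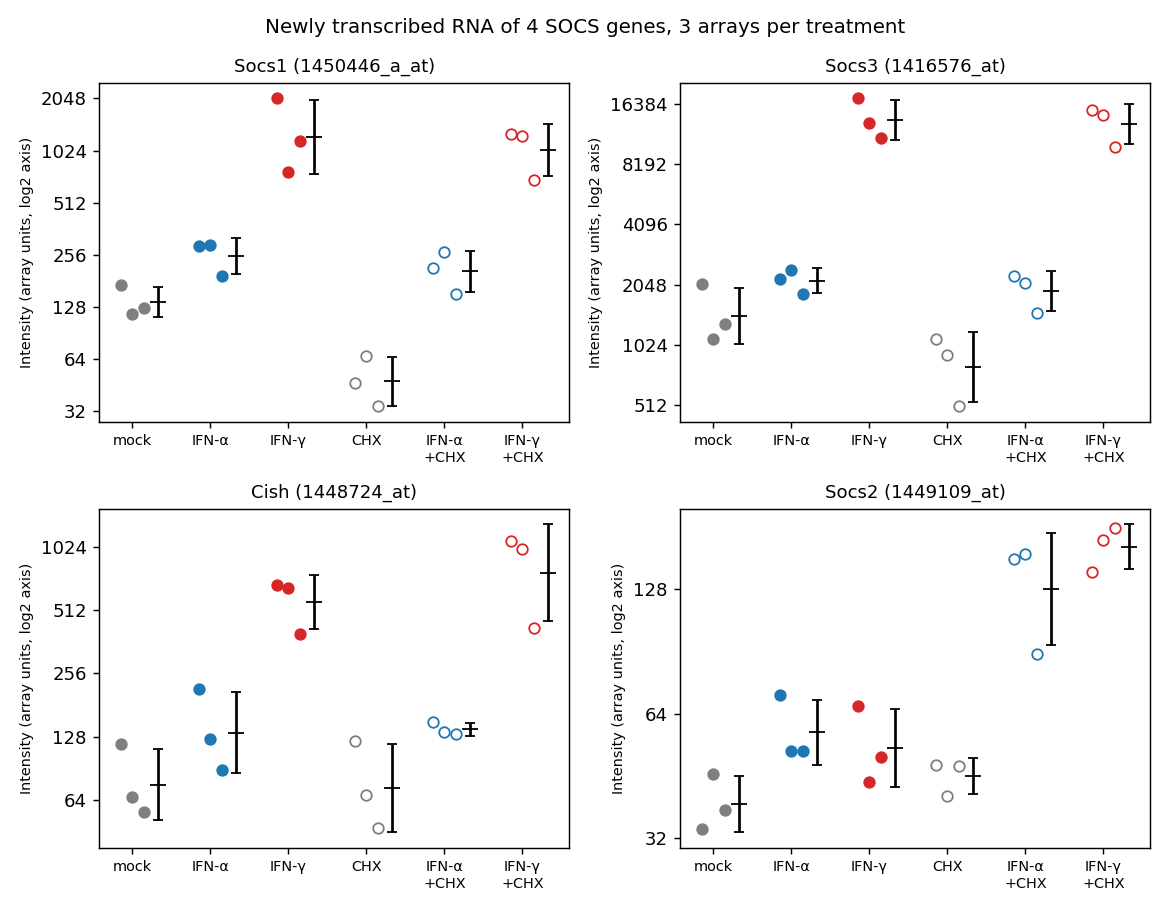
Intensity of newly transcribed RNA (y, array units on a log2 axis) of Socs1, Socs3, Cish and Socs2 with 1 probe set each, by treatment (x); points are the 3 arrays, filled without and open with CHX, and the bar is the mean ± SD of log2 intensity. IFNγ arrays stand above all others for Socs1, Socs3 and Cish, whereas Socs2 is highest with either IFN in the presence of CHX, at 89.3 to 180 against 33.7 to 71.1 in the other treatments.

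Socs3, which encodes the inhibitor of gp130 cytokine receptors such as those of IL-6, LIF and oncostatin M, rose with IFNγ by all 3 of its probe sets. With 1416576_at the intensity was 2053, 1100 and 1306 in mock, 2194, 2435 and 1839 with IFNα and 17482, 13169 and 11038 with IFNγ. With CHX it was 1092, 914 and 505, with IFNα and CHX 2252, 2097 and 1470, and with IFNγ and CHX 15352, 14385 and 10022. The 6 IFNγ arrays were separate from the others, IFNα overlapped mock, and the CHX arrays lay below every mock array. The log2 change with IFNγ was 3.25 (9.51-fold, SE 0.30, adjusted p = 9.17e-06), and 2.51 and 2.87 with 1455899_x_at and 1456212_x_at. With IFNγ and CHX against CHX it was 4.03 (16.4-fold, SE 0.30, adjusted p = 4.48e-07), 2.87 and 3.45. The suffix _x_at marks probe sets in which some probes may also match other sequences. Across the 18 arrays the 3 probe sets correlated with r of 0.978 to 0.989, as a description over arrays that share treatments.

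The IFNα response of Socs3 was smaller. Log2 changes were 0.58, 0.71 and 0.46 without CHX (adjusted p = 0.962, 0.620 and 1.00) and 1.26, 0.78 and 1.08 with it (0.0746, 0.578 and 0.177), in the order 1416576_at, 1455899_x_at and 1456212_x_at. By 1416576_at and 1456212_x_at the arrays with IFNα and CHX lay above those with CHX alone. A limma fit with the replicate number as a block called both (adjusted p = 0.00176 and 0.00435), although no label says what a number marks. IFNγ exceeded IFNα by 2.67, 1.80 and 2.40 in log2 without CHX and by 2.77, 2.09 and 2.37 with CHX. All 6 of these differences were called, with adjusted p of 2.88e-05 to 0.00107. From the arrays of the comparison alone 1456212_x_at lost the call between the IFNs without CHX (adjusted p = 0.010003), and 1455899_x_at that of IFNγ with CHX against CHX (0.0105). CHX alone gave -0.85, -0.15 and -0.43, none called (adjusted p = 0.0653 for 1416576_at).

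Cish encodes CIS, an inhibitor of receptors that signal through STAT5, and followed IFNγ as Socs1 and Socs3 did. Its intensity was 118, 65.8 and 56.0 in mock, 216, 125 and 89.0 with IFNα and 673, 651 and 395 with IFNγ. With CHX it was 122, 67.4 and 46.9, with IFNα and CHX 150, 135 and 131, and with IFNγ and CHX 1088, 1002 and 418. IFNγ arrays stood above all others, IFNα overlapped mock, and CHX overlapped mock. The rise was 7.36-fold with IFNγ (log2 change 2.88, SE 0.44, adjusted p = 9.41e-04) and 10.6-fold with IFNγ and CHX (3.40, adjusted p = 1.15e-04). IFNα gave 0.82 (95% confidence interval -0.12 to 1.76) and with CHX 0.93 (-0.01 to 1.87).

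Cish separated the IFNs by 2.06 in log2 without CHX, which was not called (adjusted p = 0.0166), and by 2.47 with CHX, which was (adjusted p = 0.00223). The first was called without replicate 3 of IFNγ with CHX (adjusted p = 0.00726) and with a stricter filter (0.00846). It was also called with the replicate number as a block (1.11e-04). The second lost its call without replicate 2 or 3 of IFNα with CHX or without replicate 1 or 2 of IFNγ with CHX (0.0109 to 0.0135). The rises with IFNγ were not called from the arrays of each comparison alone (adjusted p = 0.0161, and 0.0313 with CHX), nor was its difference between the IFNs with CHX (0.0409). Cish did not differ detectably between CHX and mock, at -0.06 (95% confidence interval -1.001 to 0.88).

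**Figure D2:**
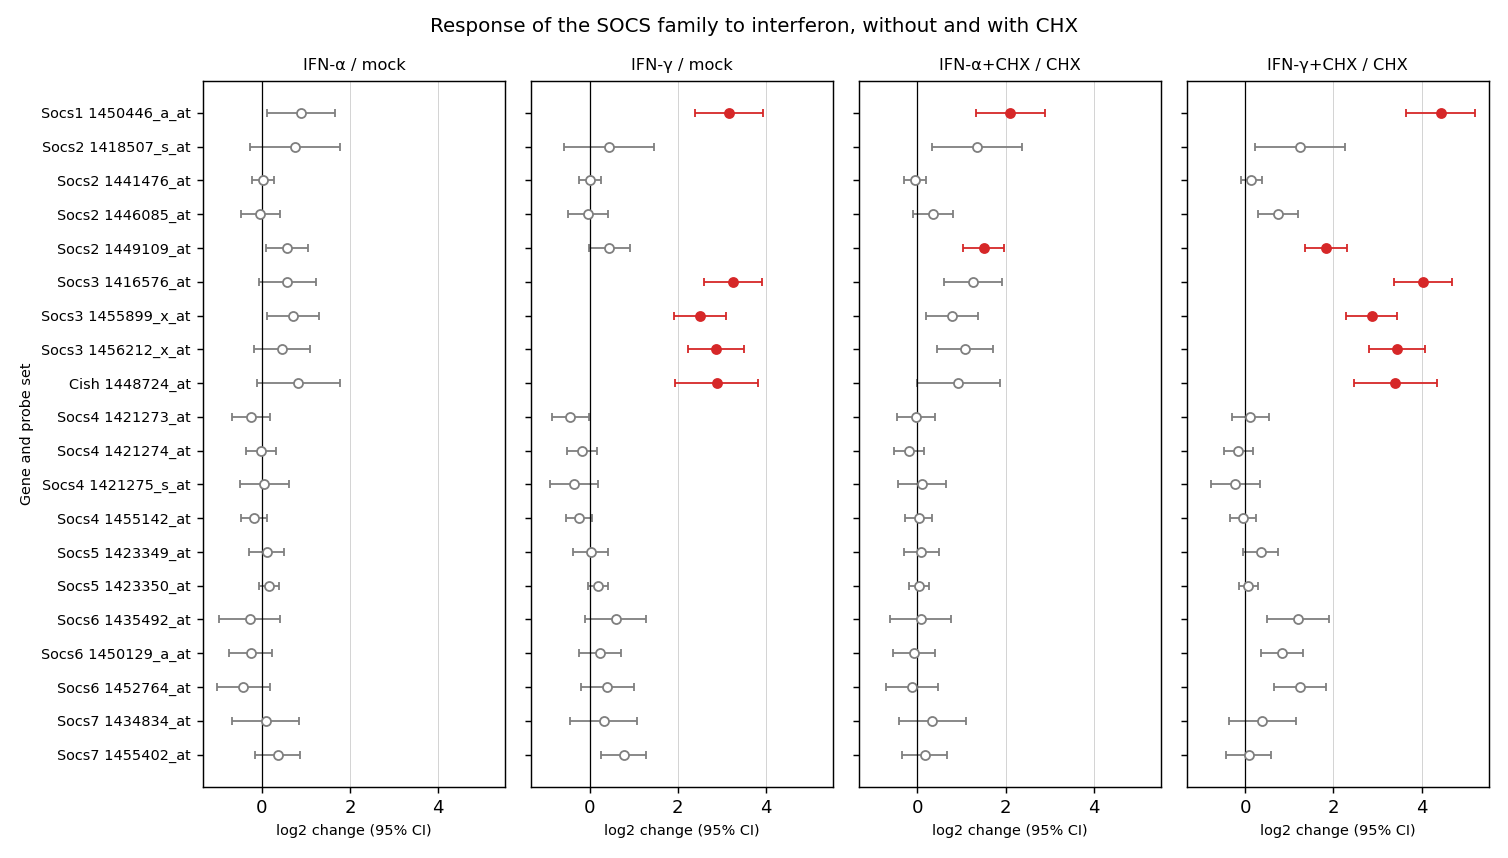
Log2 change (x) of each of the 20 SOCS family probe sets tested (y) with IFNα or IFNγ, without CHX against mock and with CHX against CHX; points are differences of means of 3 arrays with 95% confidence intervals, red and filled where called. The called rises number 0, 5, 2 and 6 from left to right, and the changes of Socs4 and Socs5 lie between -0.44 and 0.35 with no call.

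Socs2, which encodes an inhibitor of growth hormone receptor signalling, differed from these 3 genes. With 1449109_at the intensity was 33.7, 45.8 and 37.4 in mock, 71.1, 52.0 and 51.9 with IFNα and 67.0, 43.7 and 50.2 with IFNγ. With CHX it was 48.2, 40.4 and 47.9, with IFNα and CHX 152, 156 and 89.3, and with IFNγ and CHX 141, 168 and 180. The 6 arrays with both an IFN and CHX lay above the other 12. Neither IFN alone gave a call (log2 change 0.58 with IFNα, adjusted p = 0.606, and 0.45 with IFNγ, adjusted p = 0.517), nor did CHX alone (0.23, 95% confidence interval -0.24 to 0.70).

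With CHX present, IFNα raised Socs2 2.83-fold (log2 change 1.50, SE 0.22, adjusted p = 0.00116) and IFNγ 3.58-fold (1.84, adjusted p = 5.77e-05). IFNγ with CHX exceeded IFNα with CHX by 0.34 (95% confidence interval -0.14 to 0.81), which was not called. Set against the same IFN without CHX, the level was 2.22-fold higher with IFNα (1.15, adjusted p = 0.00190) and 3.07-fold higher with IFNγ (1.62, adjusted p = 1.19e-04). The gain of the response under CHX was 0.92 for IFNα (0.25 to 1.59, adjusted p = 0.704) and 1.39 for IFNγ (0.72 to 2.06, adjusted p = 0.0753), so that it did not pass for either. The IFNα call against CHX was lost from the 6 arrays of the comparison alone (adjusted p = 0.128). That against IFNα was lost there too (0.0408), without replicate 2 or 3 of IFNα or replicate 1 or 2 of IFNα with CHX (0.0103 to 0.0115), and with log2(value + 16), where the change was 0.97.

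The other probe sets of Socs2 had no called change. With 1418507_s_at, at intensities of 10.6 to 90.2, the log2 change was 1.35 with IFNα and CHX and 1.25 with IFNγ and CHX, both uncalled (adjusted p = 0.575 and 0.157). With 1446085_at the IFNγ and CHX arrays read 9.3, 19.7 and 19.6 against 8.5, 8.8 and 10.1 with CHX, so that replicate 1 stood apart from the other two. The change of 0.75 was uncalled (adjusted p = 0.0432), and without that array it was 1.11 (4.53e-06). Without it the difference from IFNγ alone was called as well, at 1.22 (2.65e-06), and so was the gain of the IFNγ response under CHX, at 1.14 (8.33e-04). The remaining probe set tested, 1441476_at, stayed between 6.9 and 10.6. It passed the filter, whose lowest value kept was 8.5, only through replicate 1 of IFNγ with CHX (10.6). The 2 untested probe sets stayed at or below 5.5.

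Socs6 encodes a family member described in receptor tyrosine kinase signalling, and each of its 3 probe sets had its highest mean with IFNγ and CHX. With 1452764_at the intensity was 84.5, 64.3 and 46.0 in mock, 50.5, 42.5 and 48.3 with IFNα, 94.3, 66.5 and 91.5 with IFNγ, 80.4, 47.0 and 62.3 with CHX, 78.9, 48.0 and 47.9 with IFNα and CHX, and 118, 132 and 202 with IFNγ and CHX. The last 3 arrays lay above the other 15. IFNγ with CHX exceeded IFNα with CHX by 1.37 in log2 (2.59-fold, SE 0.28, adjusted p = 0.00612). It exceeded CHX by 1.25 (adjusted p = 0.0113), just short of a call, and the other 2 probe sets by 1.20 (1435492_at, adjusted p = 0.0376) and 0.82 (1450129_a_at, 0.0356).

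The Socs6 call depended on single arrays and settings. It was lost without replicate 2 of mock, 3 of IFNα, 2 or 3 of IFNα with CHX, or 2 or 3 of IFNγ with CHX (adjusted p 0.0101 to 0.0336), without the filter (0.0132) and with the 6 arrays compared fitted alone (0.104). The change against CHX was called without replicate 1 or 3 of mock, replicate 1 of CHX or replicate 1 of IFNα with CHX (0.00762 to 0.00940), and with a stricter filter (0.00689). It was also called with the replicate number as a block (0.00444). With 1435492_at the IFNγ and CHX arrays read 784, 1271 and 2536, and without replicate 1 the changes against CHX and against IFNα with CHX were 1.59 and 1.52 (adjusted p = 0.00337 and 0.00502). With 1450129_a_at the change against IFNα with CHX was 0.90 (0.0226), and 1.11 without replicate 2 of IFNγ with CHX (0.00705).

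Socs4, Socs5 and Socs7 had no called change in any of the 11 comparisons. Socs4 and Socs5, both described as regulators of the EGF receptor, were measured by 4 and 2 probe sets, and their log2 changes ran from -0.64 to 0.56. The lowest was Socs4 1421273_at with CHX against mock (adjusted p = 0.0361), at intensities of 12.9 to 15.5 against 17.2 to 27.2. With IFNγ the same probe set gave -0.44 (95% confidence interval -0.86 to -0.011), also uncalled. Socs5 read 7169 to 10408 over the 18 arrays by 1423350_at. Its log2 change with IFNγ was 0.20 (95% confidence interval -0.03 to 0.42).

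Socs7, linked to insulin signalling, read 1474, 744 and 1141 in mock and 1670, 1904 and 1978 with IFNγ by 1455402_at. Its change of 0.78 (95% confidence interval 0.26 to 1.29) was not called (adjusted p = 0.119), although the arrays did not overlap. With IFNγ and CHX the arrays read 1242, 1206 and 780.4, which was -0.81 against IFNγ alone (adjusted p = 0.0240). By 1434834_at the intensity was 383 to 474 in mock and 170 to 322 with CHX, a change of -0.72 (adjusted p = 0.184). The 2 untested probe sets of Socs7 stayed at or below 4.1.

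**Figure D3:**
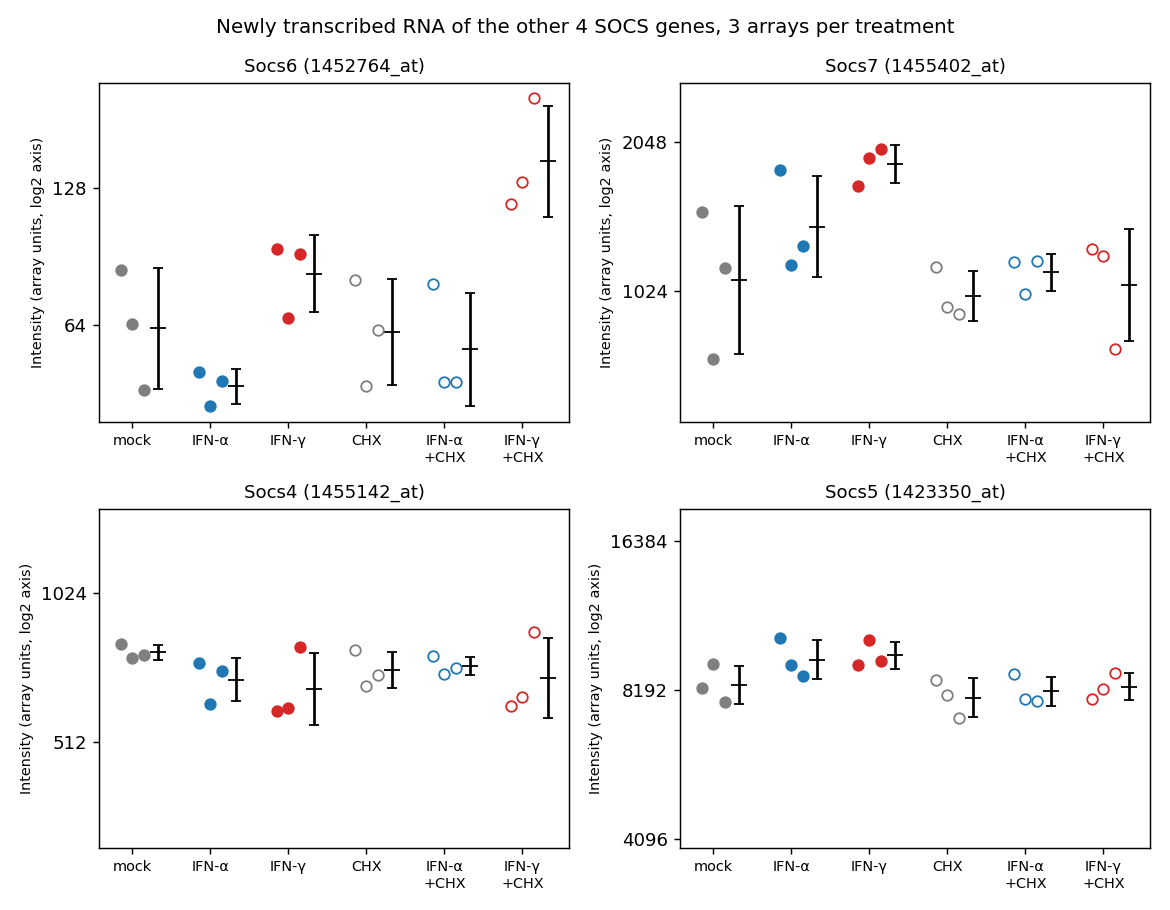
Intensity (y, array units on a log2 axis) of Socs6, Socs7, Socs4 and Socs5 with 1 probe set each, by treatment (x); points are the 3 arrays, filled without and open with CHX, and the bar is the mean ± SD of log2 intensity. Socs6 is highest with IFNγ and CHX (118 to 202), Socs7 is higher with IFNγ than in mock without a call, and no change of Socs4 or Socs5 is called.

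A direct test of IFNγ against IFNα called 4 of the 20 probe sets, those of Socs1 and Socs3, against 1.47% of all probe sets. With CHX it called 6, of Socs1, Socs3, Cish and Socs6, against 2.93%. All 10 calls were higher with IFNγ. The median difference of the 20 was 0.13 without CHX and 0.30 with it, and over all probe sets -0.01 and -0.0069. Fitted from the arrays of the comparison alone, the counts were 2 and 3.

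The effect of CHX was called for 1 of the 20 probe sets in cells without IFN, the fall of Socs1, against 6.59% of all probe sets. It was called for 1 in cells with IFNα (7.15%) and for 1 in cells with IFNγ (8.4%), in each case a rise of Socs2. These shares of the family, 5% each, were near or below that of all probe sets. The test of a different IFN response under CHX called 0 of 20 for IFNα by limma (0.187% of all, 2 at an unadjusted p under 0.05) and 0 of 20 for IFNγ (0.238%, 4 at an unadjusted p under 0.05).

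**Figure D4:**
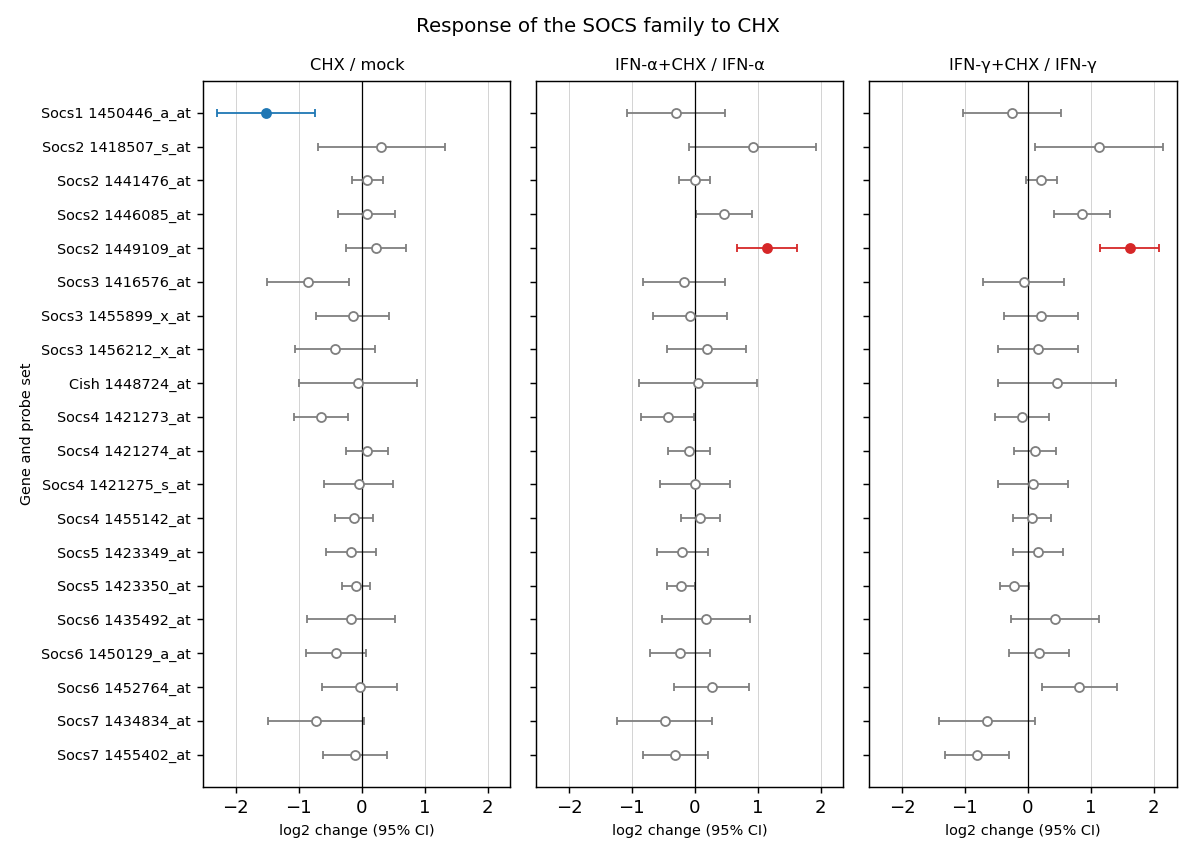
Log2 change (x) of each of the 20 SOCS family probe sets (y) with CHX in cells without IFN, with IFNα and with IFNγ; points are differences of means of 3 arrays with 95% confidence intervals, filled red for a called rise and filled blue for a called fall. Socs1 is the called fall without IFN (-1.52), and Socs2 1449109_at is the called rise with IFNα (1.15) and with IFNγ (1.62).

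The pathway that the family inhibits was followed by a list of 16 IFN receptor, JAK and STAT genes with Irf9, of which 13 were tested with 1 probe set a gene. It and the lists that follow were chosen with earlier results of these data known, so their counts are a description. IFNγ raised 4 of them and IFNα 2, and with CHX these counts were 5 and 2, with no falls, while 2.31%, 0.644%, 4.03% and 1.2% of all 12121 genes were called. The median log2 change of the list was 0.30 with IFNγ and 0.66 with IFNγ and CHX, beside 0.0060 and -0.024 over all genes. Stat3, which encodes the STAT of gp130 receptors, rose with IFNγ by 1.74 (SE 0.14, adjusted p = 1.52e-06) and with CHX by 2.40 (adjusted p = 2.54e-08), and differed between the IFNs by 1.63 and 1.52. Ifnar2, a subunit gene of the IFNα receptor, rose with IFNγ by 1.79 both without and with CHX. Irf9 rose with IFNγ by 3.67 and with IFNα by 4.13, and Stat2, with a wider spread, by 4.18 and 4.55 (SE 0.71). Stat6 rose by 1.24 with IFNγ and CHX.

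Of the early genes of STAT3 and STAT5, the STATs of the receptors that SOCS3, CIS and SOCS2 act on, a minority changed with IFNγ. Of 19 genes 5 rose and 0 fell with IFNγ (2.31% of all genes called), 7 rose and 1 fell with IFNγ and CHX (4.03%), and 0 were called with IFNα by limma in either setting (2 at an unadjusted p under 0.05, and 3 with CHX). The median log2 change of the list was 0.11 with IFNγ and 0.23 with IFNγ and CHX, beside 0.0060 and -0.024 over all genes. Bcl3, an IκB family regulator, rose by 3.34 with IFNγ (SE 0.46, adjusted p = 3.75e-04). Pim3, a kinase gene, rose by 2.29 and with CHX by 2.76 (SE 0.23, adjusted p = 1.55e-06). Cebpd, a transcription factor gene, fell with CHX alone by 2.22 on the log2 scale (adjusted p = 9.25e-05) and rose with IFNγ and CHX by 2.36 (5.81e-05). Ccnd1, which encodes cyclin D1, was the fall, at -1.21.

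Among 15 tested cytokine ligands and receptors that use STAT3 or STAT5, 4 rose with IFNγ (2.31% of all genes called), and 4 rose and 3 fell with IFNγ and CHX (4.03%). IFNα with CHX raised 1 (1.2%), and IFNα alone 0 by limma (4 at an unadjusted p under 0.05). The median log2 change was 0.053 with IFNγ and -0.033 with IFNγ and CHX, close to those of all genes. Lifr, the LIF receptor gene, rose by 1.33 with IFNγ and by 2.40 with CHX (SE 0.15, adjusted p = 5.15e-08). Il6, the gene of the ligand interleukin 6, rose with IFNγ by 1.44 and with CHX by 2.13, and with IFNα and CHX by 1.98. Osmr, the oncostatin M receptor gene, rose by 1.15 and 1.61, and Il6st, which encodes gp130, by 1.00 and 1.12. The falls were Csf2 (-2.16), Clcf1 (-1.59) and Lif (-1.40), all ligand genes. Stat3, Osmr and Il6st are each in a pair of these lists.

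The tested partners of SOCS proteins had no called change. Of the 8 tested genes for elongins, cullins, RING proteins and the neddylation enzymes of the ligase, 0 were called by limma in each of the 11 comparisons (0 to 2 at an unadjusted p under 0.05). The share of all genes called in these comparisons was 0.297% to 10.9%, so 0 calls among 8 genes is near that share. Of 14 other SOCS-box genes 0 were called with either IFN, without or with CHX (0 to 2 at an unadjusted p under 0.05), beside 0.644% to 4.03% of all genes. With CHX alone 1 of them rose, Wsb1 (1.20, SE 0.16, adjusted p = 1.41e-04), beside 7.96% of all genes called. Of 18 other negative regulators of JAK-STAT signalling, 0 rose and 1 fell with IFNγ (2.31% of all genes called), the phosphatase gene Dusp1 (-1.40, adjusted p = 3.67e-04). With IFNγ and CHX 1 rose and 1 fell (4.03%). Usp18, whose product dampens IFNα receptor signalling, rose by 2.21 (SE 0.15, adjusted p = 1.64e-07) and Dusp1 fell by 1.16 on the log2 scale. With IFNα 1 rose (0.644%), Usp18 by 6.62, and with IFNα and CHX 2 rose (1.2%), Usp18 by 8.34 and Nmi by 1.63 (adjusted p = 0.00241). The median log2 change of the list was 0.11 and 0.064 with IFNα, without and with CHX, and 0.044 and -0.12 with IFNγ. Usp18 was lower with IFNγ than with IFNα by 6.06 on the log2 scale, opposite to Socs1 and Socs3. With CHX alone 1 of the 18 fell (7.96% of all genes called), the adaptor gene Sh2b3, by 1.35 on the log2 scale.

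The genes most like each responding member were found by the correlation of log2 intensity over the 18 arrays, among 12120 other genes with 1 probe set each. For Socs1 these were Noc4l (r = 0.978), Tnfrsf1a (0.961), Slc66a2 (0.956), Plekhf1 (0.954) and Hk2 (0.952). For Socs3, by 1455899_x_at, they were Aebp2 (0.972), Cish (0.971), Stat3 (0.969), Slc66a2 (0.967) and Plekhm1 (0.963). For Cish they were Plekhm1 (0.985), Prag1 (0.975), Tnfrsf1a (0.974), Sting1 (0.974) and Dexi (0.971). The lists of Socs1, Socs3 and Cish share members, and a member of the family stood in that of Socs3. For Socs2 they were Cxcl11 (0.949), Ppm1k (0.938), Trim6 (0.933), Art3 (0.919) and Ifi204 (0.909), and no gene of this list stood in the other 3. The 18 arrays form 6 treatments, so these values describe shared treatment patterns.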

How the data were processed

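Newly transcribed RNA of 18 NIH-3T3 cultures was measured on Affymetrix arrays of the mouse genome. The deposited table holds linear intensity values, 1 for each probe set on each array. The methods name gc-RMA for background correction, normalization and summation by the authors. Affymetrix Expression Console stands, without a version, in the submitters' processing notes. Normalization between arrays fixes their overall level, so a change common to all RNA would not show.

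Groups came from the sample titles. Of 45101 probe sets 64 controls were left out. The annotation gives 1 gene symbol for 34945 probe sets, several for 932 and none for 9160. Present calls were not used here. Instead the probe sets with the highest value on any array were kept, as many as the study kept (27759, or 27773 with ties). Log2 intensities without an added constant were fitted in R 4.3.3 with limma 3.58.1 (lmFit, contrasts.fit, eBayes), in 1 model of 6 treatments with 12 residual and 2.05 prior degrees of freedom and no replicate block. P-values were two-sided and adjusted by Benjamini-Hochberg for each of 11 comparisons. The steps were tested on simulated data. Arrays have no sequencing depth, and 3 arrays per treatment limit the precision.

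Alternatives were log2(value + 1), log2(value + 16), median centring, quantile normalization, no filter, a stricter filter of 13879 probe sets, only the arrays compared, a replicate block, and leaving out each array. All member probe sets are named. Of each gene list, genes named are among the 3 called genes with the largest change per comparison and direction, with the brightest probe set for each gene. For Socs1, Socs2, Socs3 and Cish the 5 genes of highest correlation are named. The members and lists were chosen with earlier results of these data known. Promoter windows came from RefSeq and were searched with Python 3.11.15. Windows for Socs2, Socs5, Socs6 and Socs7 were not used here.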

Additional observations from a re-analysis of the deposited data

How the results depend on the processing

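Of 220 results for single probe sets of the family 26 were called. All 26 kept their direction under every alternative run, and 13 stayed called under every alternative that gave a value. Of the uncalled results, 62 changed sign under some alternative.

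The number of SOCS probe sets called moved as follows. For CHX against mock it was 1, and 0 with log2(value + 16), with quantile normalization, without the filter or from the arrays compared alone. For IFNα with CHX against CHX it was 2, and 1 with log2(value + 16) or without the filter, 0 from the arrays compared alone and 4 with the replicate block. For IFNα with CHX against IFNα it was 1, and 0 with log2(value + 16) or from the arrays compared alone. The arrays compared alone gave 3 in place of 5 for IFNγ against mock, 2 in place of 4 for IFNγ against IFNα, 3 in place of 6 for the same with CHX and 4 in place of 6 for IFNγ with CHX against CHX. The stricter filter and the replicate block each gave 7 for IFNγ with CHX against CHX and 5 for IFNγ against IFNα. Without the filter IFNγ against IFNα, both with CHX, gave 5.

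With 1 array left out at a time, the counts ranged from 0 to 1 for CHX against mock, 1 to 2 for IFNα with CHX against CHX, 0 to 1 for IFNα with CHX against IFNα, 1 to 2 for IFNγ with CHX against IFNγ and 0 to 1 for the difference of IFNγ responses. The count stayed at 5 for IFNγ against mock, and was 6 to 8 for IFNγ with CHX against CHX, 3 to 5 for IFNγ against IFNα and 4 to 6 for the same with CHX.

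With the replicate block, Socs3 was called with IFNα and CHX by 1416576_at and 1456212_x_at (adjusted p = 0.00176 and 0.00435), Socs6 1452764_at with IFNγ and CHX against CHX (0.00444), and Cish between the IFNs (1.11e-04). No call was lost. The pairing rests on a number alone: deviations of same-numbered arrays from their group means correlated with -0.40 to 0.78, over 0.1 in 38 of 45 pairs, and an array correlated best with its own number in 67 of 90 cases. Signal near background limits the dim probe sets of Socs2 and Socs4.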
